A study of Mus musculus with 22 samples.

Results

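The starts of 5071 lincRNA genes (long intergenic noncoding RNA genes, which lie between protein-coding genes) were examined for the histone mark H3K4me3 in blood progenitors of the mouse fetal liver. They were taken as every gene that the deposited bulk table lists with the biotype lincRNA and that has at least 1 start window in the deposited H3K4me3 table. These genes have 7303 of the 130983 deposited windows. For each gene the window with the highest mean count over the 4 H3K4me3 libraries was kept, so that the lincRNA genes supplied 5071 of 52453 windows. This choice favours genes with many windows, and lincRNA genes have fewer per gene than the table as a whole. Its part in differences of level between kinds of gene was not tested. A window was called marked when its mean over the 4 libraries was at least 16 CPM (counts over library size, with libraries evened out for composition by TMM). The genotype played no part in choosing the windows.

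H3K4me3 is trimethylation of lysine on histone H3, placed by SET1 and MLL enzymes around the starts of genes that are being or can be transcribed. Many lincRNA starts carry it at lower levels than coding starts, and others begin beside a coding promoter that is transcribed in both directions. lincRNAs include scaffolds of nuclear bodies, regulators of imprinting and X inactivation, host transcripts of small RNAs, and many transcripts of unknown role.

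The study asked what METTL3, the enzyme that writes N6-methyladenosine into RNA, does in blood formation. KO animals were E14.5 embryos (embryonic day) with both Mettl3 alleles floxed and Vav-Cre, which is active in blood and endothelial cells, and WT animals were embryos of the same day carrying the floxed alleles but no Cre. All cells were LSK cells, that is Lin-, Sca-1+ and c-Kit+, the sorted fraction that holds stem cells and multipotent progenitors. H3K4me3 was read by CUT&RUN, which cuts out DNA beside a bound antibody, in 2 KO libraries against 2 of WT. Polyadenylated RNA was sequenced in bulk from 3 KO and from 3 WT samples. The labels call these biological replicates.

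The chosen H3K4me3 windows summed to 13836793 and 14451575 counts in KO libraries and to 14346267 and 11508783 in WT libraries, so 1 count was worth 0.0690 to 0.0817 CPM. The bulk libraries held 40641081, 27732838 and 33219187 counts in KO and 30253892, 35924983 and 20088100 in WT, and 1 count was worth 0.0252 to 0.0495 CPM. Mettl3 RNA stood at 4.13, 6.31 and 5.52 CPM in KO libraries and at 43.0, 43.0 and 33.2 CPM in WT libraries (log2 fold change -2.91, adjusted p = 1.57e-05 by edgeR). The 8 stem and progenitor markers summed to between 1640 and 1870 CPM in KO and between 1960 and 2410 CPM in WT, with 5 of 8 called lower and 1 higher. Hepatocyte markers summed to 12.2 to 51.4 CPM in KO and 17.2 to 155 CPM in WT, macrophage markers to 4.26 to 6.21 CPM in KO and 7.03 to 25.1 CPM in WT, and erythroid markers to 174 to 226 CPM in KO and 185 to 308 CPM in WT. Endothelial markers summed to 80.6 to 82.1 CPM in KO and 85.4 to 86.8 CPM in WT. In bulk samples, fewer cells of a type and less RNA per cell cannot be told apart. The 4 Y-linked genes Ddx3y, Eif2s3y, Kdm5d and Uty summed to 0, 43.1 and 36.1 CPM of RNA in KO and to 155, 95.1 and 181 CPM in WT, and their H3K4me3 windows lay between 17.6 and 35.9 CPM in the 4 libraries.

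Promoters of 5 lincRNA genes are shown, chosen from the named genes for which a RefSeq promoter was found. None was found for H19, Neat1, Trp53cor1, Gm42047, AC136976.1 and other named genes. Gm14005, listed as Morrbid by RefSeq, was higher in KO in both assays. Malat1 had one of the strongest marks, Dubr had less RNA in KO without a called change of its mark, and Gm5086 and Meg3 had unmarked starts and less RNA in KO. Each line runs 5′ to 3′ on the strand of the gene, from 250 bases before to 50 bases after the RefSeq start on GRCm38.p6, with CpG steps in capitals. Gm14005 is chr2:128429302-128429601 on the minus strand, with 8 CpG steps. Malat1 is chr19:5802623-5802922 on the minus strand, with 10. Dubr is chr16:50732724-50733023 on the minus strand, with 19. Gm5086 is chr13:97559750-97560049 on the plus strand, with 7, and Meg3 is chr12:109540746-109541045 on the plus strand, with 13.
Gm14005: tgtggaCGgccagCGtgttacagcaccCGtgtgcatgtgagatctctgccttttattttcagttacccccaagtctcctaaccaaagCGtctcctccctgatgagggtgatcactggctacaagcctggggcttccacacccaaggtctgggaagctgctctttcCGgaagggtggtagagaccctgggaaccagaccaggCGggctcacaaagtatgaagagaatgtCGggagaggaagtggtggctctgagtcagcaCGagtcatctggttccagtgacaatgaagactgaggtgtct
Malat1: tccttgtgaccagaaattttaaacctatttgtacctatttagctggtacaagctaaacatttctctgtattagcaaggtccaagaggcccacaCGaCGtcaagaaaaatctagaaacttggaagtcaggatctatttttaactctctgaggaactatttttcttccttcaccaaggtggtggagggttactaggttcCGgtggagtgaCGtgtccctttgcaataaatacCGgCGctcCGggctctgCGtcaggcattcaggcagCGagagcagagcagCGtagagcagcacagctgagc
Dubr: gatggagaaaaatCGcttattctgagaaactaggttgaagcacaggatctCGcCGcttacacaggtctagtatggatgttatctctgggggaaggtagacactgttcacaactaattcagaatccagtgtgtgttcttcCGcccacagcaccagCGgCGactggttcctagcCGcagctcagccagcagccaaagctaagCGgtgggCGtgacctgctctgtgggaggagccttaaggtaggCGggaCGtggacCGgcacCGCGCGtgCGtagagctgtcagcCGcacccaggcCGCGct
Gm5086: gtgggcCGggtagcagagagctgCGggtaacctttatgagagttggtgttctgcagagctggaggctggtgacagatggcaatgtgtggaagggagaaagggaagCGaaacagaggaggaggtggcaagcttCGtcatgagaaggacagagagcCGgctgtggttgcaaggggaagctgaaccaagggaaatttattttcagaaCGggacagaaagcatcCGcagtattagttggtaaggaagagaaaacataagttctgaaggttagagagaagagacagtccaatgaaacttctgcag
Meg3: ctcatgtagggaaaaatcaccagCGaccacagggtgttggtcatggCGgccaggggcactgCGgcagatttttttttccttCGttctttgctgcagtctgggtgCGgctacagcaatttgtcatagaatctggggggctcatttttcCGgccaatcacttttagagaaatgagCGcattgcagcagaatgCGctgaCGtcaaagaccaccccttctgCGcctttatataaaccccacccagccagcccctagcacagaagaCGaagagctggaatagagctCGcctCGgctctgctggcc

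Few lincRNA starts carried the mark. Of the 5071 windows, 707 (13.9%) were marked, against 12231 of 21925 protein-coding windows (55.8%) and 775 of 2645 antisense RNA windows (29.3%). The lincRNA share differed between chromosomes, from 0 of 549 windows on Y and 30 of 342 (8.77%) on chromosome 8 to 47 of 89 (52.8%) on chromosome 17. The median level was 1.94 CPM at lincRNA starts, 24.2 CPM at protein-coding starts and 4.57 CPM at antisense starts. Marked lincRNA windows had a median of 39.8 CPM, with quartiles of 25.6 and 59.6 CPM, and marked coding windows had a median of 52.1 CPM. In single libraries, 710 and 749 lincRNA windows reached 16 CPM in KO and 706 and 668 in WT. The KO libraries were the higher pair, but an exact two-sided permutation test of their shares, 2 libraries against 2, gave p = 0.333, which is the smallest p this design allows. The closest windows inside the threshold were 1700096J18Rik at 16.07 and AC159263.1 at 16.06 CPM, and the closest outside were Gm26751 at 15.95 and Raxos1 at 15.94 CPM.

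**Figure D1:**
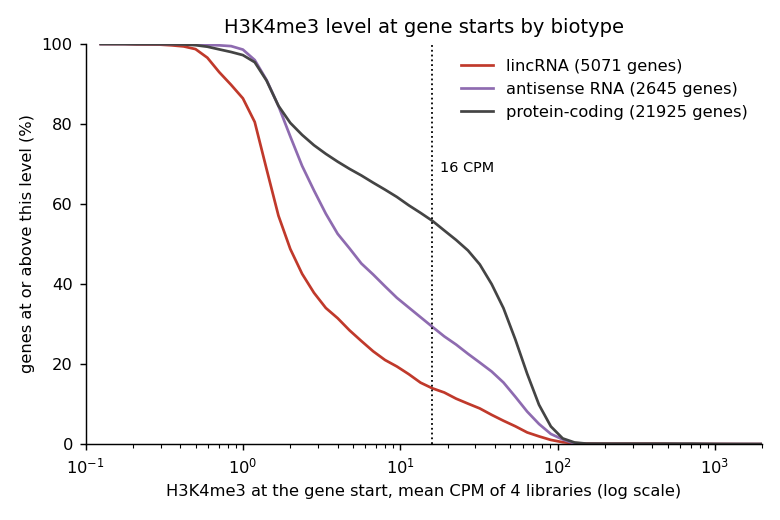
Share of genes (vertical axis, percent) whose start window reached a given H3K4me3 level (horizontal axis, mean CPM over the 4 libraries, log scale), for lincRNA, antisense RNA and protein-coding genes. At the dotted line of 16 CPM the curves stand at 13.9%, 29.3% and 55.8%.

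The 5 strongest windows stood far above the rest. Gm26870 on chromosome 9 averaged 1259 CPM and AC160116.1 on the same chromosome 452 CPM. Gm26917, Gm42418 and AY036118, whose windows overlap one another on chromosome 17, averaged 582, 520 and 446 CPM. This chromosome 17 locus is known to hold ribosomal RNA sequence, so reads here may come from other copies and their source is uncertain. Gm26870, AC160116.1 and AY036118 had 0 bulk counts in every library. None of the 5 was called between genotypes with TMM; other settings split them. Loess called Gm26870 and AC160116.1 lower in KO (adjusted p = 0.0150 and 0.00720), and library size alone AC160116.1 (0.0484). DESeq2 called Gm26917, Gm42418 and AY036118 higher in KO (log2 fold change 0.86 each, adjusted p = 0.0039, 0.0043 and 0.0043), and library size alone Gm42418 and AY036118 (0.0431 and 0.0308). A fit with the replicate number as a block called Gm26917, Gm42418 and AY036118 higher (1.91e-10, 1.27e-10 and 7.28e-11) and Gm26870 lower (0.0323).

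Below these came starts near coding genes and starts of known lincRNAs. AI480526 and 4932422M17Rik overlap each other near Setd1b, a gene for an H3K4 methyltransferase. AI480526 had 192 and 178 CPM in KO and 163 and 116 CPM in WT, and 4932422M17Rik averaged 162 CPM. 5031425E22Rik starts 522 bases from Kmt2e, on the opposite strand, and averaged 137 CPM. Malat1, a nuclear speckle RNA, had 167 and 144 CPM in KO and 117 and 98.5 CPM in WT. Mir142hg, host of a microRNA of blood cells, averaged 110 CPM, Lockd 108 CPM and Neat1, the scaffold of paraspeckles, 98.8 CPM. Both KO libraries were above both WT libraries at Malat1 and Neat1, but neither was called. The log2 fold changes, KO over WT, were 0.53 (SE 0.27) and 0.56 (SE 0.25), and edgeR's quasi-likelihood test gave adjusted p of 0.183 and 0.128. Library size alone and the fit of all distinct windows called Neat1 higher (0.0269 and 0.0402). The fit with the replicate number as a block called Malat1 and Neat1 higher (2.17e-06 and 3.75e-07).

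Many of the marked starts lay beside a coding gene. Windows were found to reach 3 kb to each side of a start, so windows of starts under 6000 bases apart share reads. By that measure 738 lincRNA windows overlapped a window of a protein-coding gene (shared) and 4333 did not (separate). Of the shared windows 405 (54.9%) were marked, and of the separate windows 302 (6.97%). The marked shared windows had a median of 48.0 CPM and the marked separate windows 29.6 CPM. Of the 405, 350 started on the opposite strand from their closest coding neighbour and 280 within 1000 bases of it, with a median distance of 351 bases. Reads in a shared window cannot be given to one gene or the other. On chromosome Y, 0 of 549 lincRNA windows were marked, and the highest averaged 2.69 CPM.

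Marked starts also had more CpG steps, as the Dubr promoter printed above illustrates. RefSeq promoters with a start on the same strand within 500 bases of the window's start were found for 217 marked and 833 unmarked lincRNA genes. They held a median of 16 CpG steps (quartiles 7 and 28) at marked starts and 4 (quartiles 2 and 6) at unmarked starts, and 7 over 32544 distinct promoters of all genes. Marked shared promoters had a median of 23.5 and marked separate promoters 9. Meg3 has 13 CpG steps and an unmarked window, and Gm14005 8 and a marked one, so the count did not sort single genes.

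Of 3 motifs searched on both strands, the ETS core CCGGAAG, which itself holds a CpG step, was in 13.8% of marked, 3.96% of unmarked and 8.91% of all promoters. Gm14005 was the one of the 5 printed promoters with a match. The TATA motif TATAAA was in 9.22%, 15.7% and 13.6%, and Meg3 was the printed promoter with a match. The interferon response motif, GAAA repeated after any 2 bases, was in 3.69%, 3.48% and 3.45%, and in 0 of 17 promoters of marked windows called higher in KO. Matches to these letters are descriptions of sequence.

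Between genotypes, the change at lincRNA windows followed their level. Of 4803 lincRNA windows tested, 165 were called higher in KO and 276 lower (adjusted p under 0.05 by edgeR's quasi-likelihood test, adjusted over all 51038 windows), where 3.23% of all tested windows were called higher and 4.66% lower, 7.88% in either direction. Among the 707 marked lincRNA windows 67 were higher and 7 lower (9.48% and 0.99%), against 5.69% and 0.345% of marked windows of all genes. Marked lincRNA windows lay lower, with a median of 39.8 CPM against 50.5 CPM, and higher calls became rarer with level. At 16 to 32 CPM 16.5% of lincRNA windows and 14.4% of all windows were called higher, and at 32 to 64 CPM 7.57% and 4.79%. Among the 4096 unmarked lincRNA windows tested 98 were higher and 269 lower, against 2.11% and 6.61% (8.72% together) of unmarked windows of all genes. The median log2 fold change was 0.31 at marked lincRNA windows and -0.40 at unmarked ones, and 0.31 and -0.41 at marked and unmarked windows of all genes. lincRNA windows of 1 to 2 CPM had a median of -0.54, like the -0.54 of all windows of that level, and those of 32 to 64 CPM had 0.32, beside 0.31. Separate marked windows (40 higher and 5 lower of 302) and shared marked windows (27 and 2 of 405) had medians of 0.31 and 0.32.

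This dependence moved with the libraries and the scaling. Marked windows of all genes took 91.3% and 89.3% of the counts in KO libraries, and 88.2% and 85.6% in WT libraries. When marked windows were fitted on their own, their 707 lincRNA members gave 13 higher and 19 lower, with a median of 0.01. That fit called 2.1% of all 15919 marked windows higher and 2.03% lower. Offsets fitted by loess to the level of a window were added with the values known. They called 2.88% of all windows higher and 2.33% lower, and 4.33% and 3.98% of marked windows of all genes. The 707 marked lincRNA windows gave 44 higher and 35 lower with these offsets. Library size alone gave 73 higher and 35 lower, and DESeq2 37 higher and 1 lower. For unmarked lincRNA windows, RLE scaling gave 162 higher and 220 lower, library size alone 21 and 339, loess 108 and 71, and DESeq2 27 and 3. Without KO 1 the marked calls were 32 higher and 3 lower, without KO 2 70 and 4, without WT 1 147 and 2, and without WT 2 19 and 6. Taking the replicate number as a block, though it is not stated to pair libraries, gave 459 higher and 15 lower marked lincRNA windows. Windows described as not called are therefore meant without that block, unless it is named. For library size alone, RLE, DESeq2, the block and the fits with a library left out, shares over all windows are not given here. Those counts show how lincRNA calls moved with the setting, not how lincRNA windows differ from others. Since the direction over the class moved with these settings, single TMM values are read beside the median of 0.31 over all marked windows. That median was 0.429 with RLE, 0.0666 with library size alone and 0.00261 with loess. The calls themselves compare a window with no change, not with this median.

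**Figure D2:**
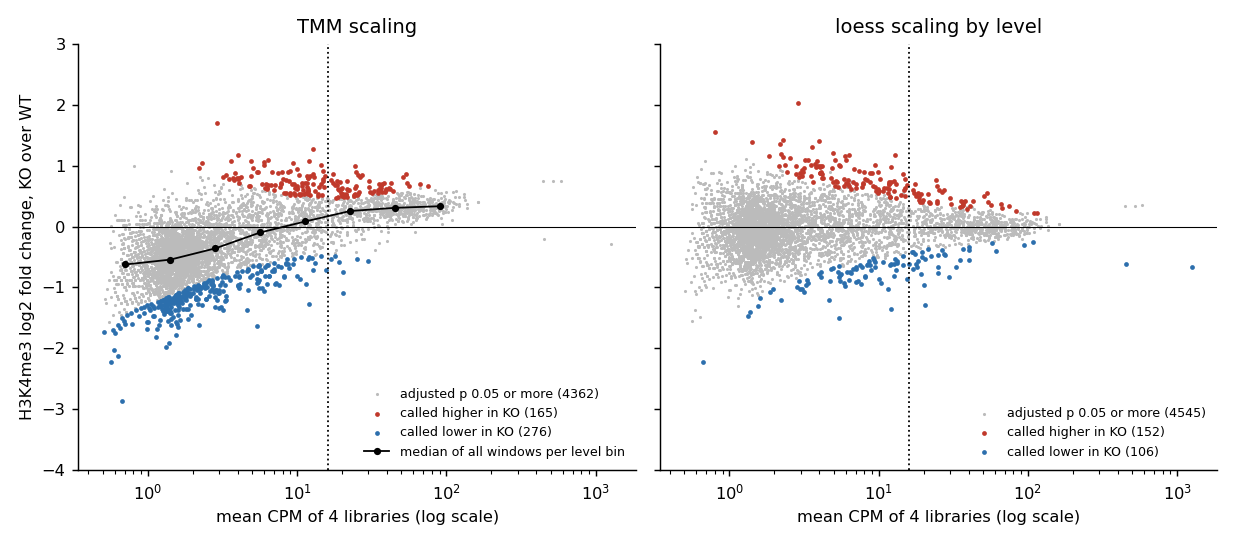
H3K4me3 log2 fold change, KO over WT (vertical axis), against mean CPM over the 4 libraries (horizontal axis, log scale) for 4803 lincRNA windows, with TMM scaling on the left and loess scaling by level on the right; the dotted line is 16 CPM and the black line is the median of all windows of the table per level bin. Under TMM 165 windows were called higher (red) and 276 lower (blue), and under loess 152 and 106.

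Redrum was the marked lincRNA start with the largest loss. This erythroid lincRNA starts at position 54422295 of chromosome 18 on the plus strand, 560182 bases from the closest coding start. Its window held 14.8 and 11.4 CPM in KO libraries and 28.6 and 26.6 CPM in WT libraries, with no overlap. The log2 fold change was -1.08 (SE 0.17, adjusted p = 9.66e-08), and it was called lower in every alternative run, with values between -0.83 and -1.40. AC159895.1 on chromosome 9 starts 2425 bases from Paqr9 on the same strand. It held 14.9 and 15.3 CPM in KO and 26.1 and 24.7 CPM in WT (log2 fold change -0.75, SE 0.17, adjusted p = 0.000627), and the overlapping Paqr9 window had -0.81 (adjusted p = 0.000151). DESeq2 gave it an adjusted p of 0.102. The erythroid markers had 2 of 6 called lower in RNA, with sums that overlapped between genotypes, and their part in the change at Redrum was not tested.

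The other 5 marked windows called lower had smaller changes. CT010463.1 (chromosome 12) had 20.1 and 21.1 CPM in KO and 31.1 and 28.2 CPM in WT. Gm42047 (chromosome 8, 3678 bases from Klhdc4) had 15.7 and 14.3 CPM in KO and 23.4 and 18.5 CPM in WT. 1700063H04Rik, AC155712.2 and Gm34908 had log2 fold changes of -0.56, -0.58 and -0.53. These 5 were also called lower with library size alone, with loess and among marked windows fitted on their own, but not with RLE scaling, where their adjusted p lay between 0.102 and 0.198, nor by DESeq2. Each also lost the call without at least 1 of KO 1 and KO 2, and without WT 1.

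Among marked windows called higher, AC136976.1 had the largest change. It starts on chromosome 13 and held 29.9 and 35.1 CPM in KO and 15.9 and 16.6 CPM in WT, which is 1.00 on the log2 scale (SE 0.17, adjusted p = 2.73e-06). Its RNA was close to 0, with 1 bulk count over all 6 libraries. Gm16194 starts 15992 bases from Cdkn1a, the gene of the cell cycle inhibitor p21. It held 70.5 and 67.4 CPM in KO and 38.6 and 37.3 CPM in WT (0.86, SE 0.21, adjusted p = 0.00290). AC154687.2 held 34.2 and 35.8 CPM in KO and 21.6 and 17.3 CPM in WT (0.85, SE 0.17, adjusted p = 0.000189). In each of these 3 the KO libraries were above the WT libraries without overlap, and each call held in 5 of 5 scalings, in DESeq2 and with each library left out.

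Gm14005 (Morrbid), a lincRNA known in mouse for setting the lifespan of short-lived myeloid cells, starts at 128429366 of chromosome 2. Its window held 66.0 and 63.5 CPM in KO and 39.5 and 34.4 CPM in WT (0.81, SE 0.21, adjusted p = 0.00501). The call held in 5 of 5 scalings but not without WT 2 (adjusted p = 0.0565). Gm26762, Gm26764, AC117245.2 and Gm16548 had log2 fold changes of 0.90, 0.86, 0.85 and 0.81, and their adjusted p rose to between 0.0724 and 0.155 when marked windows were fitted on their own. Gm16548 starts 379 bases from F5, the gene of coagulation factor V, whose window had 0.80. Gm26762 shares its window with Gpi1, a glycolytic enzyme gene, which had 0.70. Over the 5 scalings 8 marked lincRNA windows were called higher in all and 2, Redrum and AC159895.1, lower in all. Gm12536, AC156031.1, Gm13431 and AC153152.1 complete the 8 and were picked out after their values were seen, with log2 fold changes between 0.69 and 0.72.

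**Figure D3:**
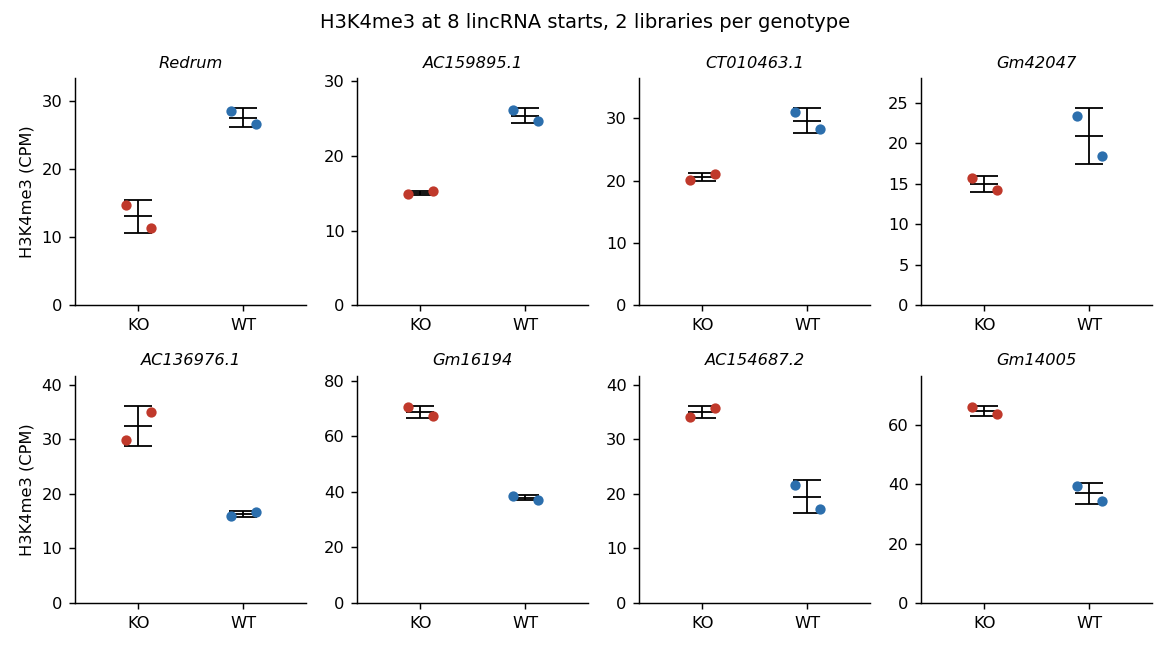
H3K4me3 level (vertical axis, CPM, each panel from 0) at 8 lincRNA starts in KO (red) and WT (blue), 1 point per library, with the mean and SD of the 2 libraries in black. The upper row holds windows called lower in KO and the lower row windows called higher, and in every panel the KO and WT libraries do not overlap.

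Unmarked windows with the largest called changes were mostly low. CT010475.1 held 4.33 and 4.51 CPM in KO and 1.24 and 1.48 CPM in WT (1.70, SE 0.30, adjusted p = 6.31e-06). Gm26841 held 17.7 and 18.6 CPM in KO and 8.57 and 6.51 CPM in WT, so its KO libraries alone passed 16 CPM (1.27, SE 0.17, adjusted p = 3.73e-10). CT009696.4 and Gm43625 had 1.18 and 1.10, and CT009696.4 was not called without WT 1 (adjusted p = 0.103). In the other direction Gm29549, Gm28425, Gm28987 and Gm28331 had -2.86, -2.22, -2.12 and -2.02. Their KO libraries held at most 5 counts and their WT libraries 12 to 17, so these windows passed the count filter through WT. The size of their fall is thus partly set by that filter. All of these 4 lie on chromosome Y, with at most 1.26 CPM in any library, and under loess Gm29549 was the one still called (adjusted p = 0.0314), though not without KO 2 (adjusted p = 0.0892). A fit without chromosome Y gave 264 unmarked lincRNA windows lower, against 269 with it.

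RNA was found at a larger share of marked starts. Of the 707 marked lincRNA genes 212 (30.0%) had enough bulk RNA counts to be tested, and of the 4364 unmarked genes 94 (2.15%). The same shares were 92.0% and 14.35% for protein-coding genes. Along the level of the mark, the tested share of lincRNA genes was 0.419% at 1 to 2 CPM, 8.36% at 8 to 16, 17.6% at 16 to 32, 31.9% at 32 to 64 and 47.3% at 64 CPM or more. CPM of RNA are not per length, so RNA levels are not compared between genes. A strong mark did not require measured RNA: Lncpint, whose window held 71.5 and 70.5 CPM in KO and 54.6 and 48.3 CPM in WT, had 2 bulk counts over the 3 KO libraries and 0 over the 3 WT libraries.

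More lincRNA genes lost RNA in KO than gained it. Of 306 tested, 24 were higher and 90 lower in KO, where 21.6% of all 14405 genes tested were higher and 22.6% lower (44.2% in either direction). At marked starts 19 of 212 were higher and 61 lower (8.96% and 28.8%), against 24.5% and 21.0% of genes of all kinds with marked windows. At unmarked starts 5 of 94 were higher and 29 lower (5.32% and 30.9%), close to the 6.18% and 30.8% of all genes with unmarked windows. Genes pass the filter through the group where they are high, so these counts describe the genes tested and not the 5071. The excess of lower calls was shared by other genes of low RNA level: below 1 CPM 3.94% of all genes tested were higher and 22.9% lower, and 4.55% and 27.9% of the lincRNA genes. At 8 CPM or more the shares were 17.1% higher and 31.4% lower for 35 lincRNA genes, and 29.35% and 18.95% for 9422 genes of all kinds. Loess scaling gave 31 higher and 42 lower at marked and 12 and 20 at unmarked starts, against 20.4% and 22.3% of all genes. Leaving out KO 3 gave 40 lower at marked starts.

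Among marked starts the largest RNA losses were in E130018N17Rik, 9130604C24Rik and Trp53cor1. E130018N17Rik had 3, 3 and 1 counts in KO and 15, 20 and 8 in WT (log2 fold change -2.67, SE 0.48, adjusted p = 0.00214). 9130604C24Rik had 8, 5 and 13 counts in KO and 43, 50 and 35 in WT (-2.45, SE 0.36, adjusted p = 0.000702). Trp53cor1, a p53-responsive lincRNA also called lincRNA-p21, had 6, 11 and 9 counts in KO and 56, 51 and 22 in WT (-2.37, SE 0.39, adjusted p = 0.00133). Gm13842, AC101882.1, E230001N04Rik, AC122428.2 and Lncenc1 had log2 fold changes of -2.33, -2.24, -2.199, -2.13 and -2.10. In each of these 8 genes the KO libraries were below the WT libraries, all at low counts. Gm13842 was not called without KO 1, KO 3 or WT 2.

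Several lincRNAs known from blood cells or other tissues lost RNA, and at most of them the mark was not called. Redrum had 2.67, 2.16 and 2.44 CPM of RNA in KO and 8.99, 12.6 and 7.82 CPM in WT (-2.02, SE 0.20, adjusted p = 0.000102), and its mark fell too. Dubr, known from mouse muscle differentiation, had 2.09, 2.65 and 2.56 CPM in KO and 6.03, 6.47 and 6.04 CPM in WT (-1.35, SE 0.16, adjusted p = 0.000212), while its mark had 39.1 and 36.5 CPM in KO and 34.6 and 27.8 CPM in WT. Lockd, which lies downstream of the cell cycle inhibitor gene Cdkn1b, had 5.12, 5.63 and 5.34 CPM of RNA in KO and 9.46, 12.8 and 11.7 CPM in WT (-1.08, SE 0.14, adjusted p = 0.000385). Mirt1 had 0.932, 1.27 and 1.31 CPM in KO and 6.47, 3.42 and 2.62 CPM in WT (-1.85, SE 0.34, adjusted p = 0.00239). The H3K4me3 changes of Dubr, Lockd and Mirt1 were 0.27, 0.10 and 0.10, below the median of 0.31 over all marked windows, and did not pass the test (adjusted p = 0.281, 0.765 and 0.633). The replicate block called Dubr higher (0.0331), and loess called Lockd lower (0.0206).

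RNA gains at marked starts were fewer. Gm14005 led them with 2.22, 2.46 and 2.12 CPM in KO and 0.660, 0.323 and 0.742 CPM in WT (2.02, SE 0.32, adjusted p = 0.00101), and the groups did not overlap. AC226737.1 had 47, 32 and 36 counts in KO and 16, 18 and 2 in WT (1.58, SE 0.42, adjusted p = 0.0136). Gm16755 rose by 1.26, Ptgs2os2, known as lincRNA-Cox2 in mouse macrophages, by 1.22, AC140477.3 by 1.21, B230208H11Rik by 1.17 and Gm44066 by 1.14. The marks of these 6 genes had log2 fold changes of 0.10 to 0.52 and did not pass the test, though B230208H11Rik was called with library size alone, without WT 1 and with all distinct windows. With the replicate number as a block, B230208H11Rik (7.21e-06), AC140477.3 (0.000377), Gm44066 (0.00314) and AC226737.1 (0.0158) were called higher. In RNA, Ptgs2os2 and B230208H11Rik had adjusted p of 0.0364 and 0.0400. Both lost the call without KO 3 (0.174 and 0.188), WT 2 or WT 3, Ptgs2os2 also without KO 1 and by DESeq2 (0.104), and Gm44066 without KO 1 (0.0572).

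Calls were also counted by list of named lincRNAs, and genes of a list with another biotype were left out. Over all genes tested for RNA 21.6% were higher and 22.6% lower, and 6.04% of marked windows of all genes were called in H3K4me3. Of 21 small nucleolar RNA host genes found, 5 have the biotype lincRNA, so the values here do not describe host genes as a whole. All 5 had marked windows, 0 were called in H3K4me3, and 3 of 4 tested rose in RNA. With the replicate number as a block, the marks of Snhg6, Snhg12, Snhg20 and Epb41l4aos were called higher (0.016, 0.00122, 0.0128 and 0.0343). Snhg6 had 32.3, 41.3 and 39.3 CPM in KO and 27.1, 26.6 and 28.3 CPM in WT (0.46, SE 0.10, adjusted p = 0.00624). Snhg20 had 4.71, 5.41 and 5.46 CPM in KO and 3.83, 1.59 and 1.88 CPM in WT (1.08, SE 0.30, adjusted p = 0.0163), and without KO 2, KO 3 or WT 2 its adjusted p was 0.0512, 0.0566 or 0.0567. Epb41l4aos had 0.38 (adjusted p = 0.0128), and Snhg12 0.30 (adjusted p = 0.355), which without WT 1 was 0.70 (adjusted p = 0.00296). The median RNA change of the 4 was 0.42, beside -0.02 over all genes tested.

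Of 11 blood cell and immune lincRNAs 10 were marked. 1 (Gm14005) was called higher in H3K4me3, and of 10 tested for RNA Gm14005 and Ptgs2os2 rose and H19, Lockd and Mirt1 fell, with a median of -0.29. Beside these calls, 44.2% of all genes tested for RNA were called in either direction. Macrophage markers had 3 of 5 called lower, with sums that did not overlap, and their part in these changes was not tested. Mir17hg, host of the miR-17 cluster, had 692, 418 and 528 counts in KO and 752, 335 and 129 in WT (0.33, adjusted p = 0.516). Without WT 1 its change was 1.08 (adjusted p = 0.000424). Pvt1, next to Myc, had 0.43 (adjusted p = 0.109), without WT 1 0.67 (adjusted p = 0.00998), and under loess 0.68 (adjusted p = 0.0232). Of 6 microRNA host lincRNAs 3 were marked, and 0 were called in either assay (2 tested for RNA).

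Of 12 abundant nuclear or broadly expressed lincRNAs 9 were marked and 0 called in H3K4me3, and of 9 tested for RNA 1 rose (Gm42418, of the ribosomal RNA locus, not called without KO 1 or KO 3) and 3 fell (Dubr, Meg3 and Trp53cor1). Among all genes tested for RNA 21.6% rose and 22.6% fell. Malat1 RNA had 156, 118 and 138 CPM in KO and 625, 154 and 99.8 CPM in WT, so WT 1 stood apart and the groups overlapped. Its log2 fold change of -1.10 (adjusted p = 0.138) was 0.11 without WT 1, and -1.48 (adjusted p = 0.0313) without WT 3. Without the filter on low counts it was -1.08 and called (adjusted p = 0.00816). Neat1 had 10.2, 6.01 and 7.49 CPM in KO and 24.6, 7.33 and 5.45 CPM in WT, with the same library high, and its -0.66 (adjusted p = 0.298) was 0.30 without WT 1. Hepatocyte markers were highest in WT 1 too, at 155 CPM, and their part in these values was not tested.

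**Figure D4:**
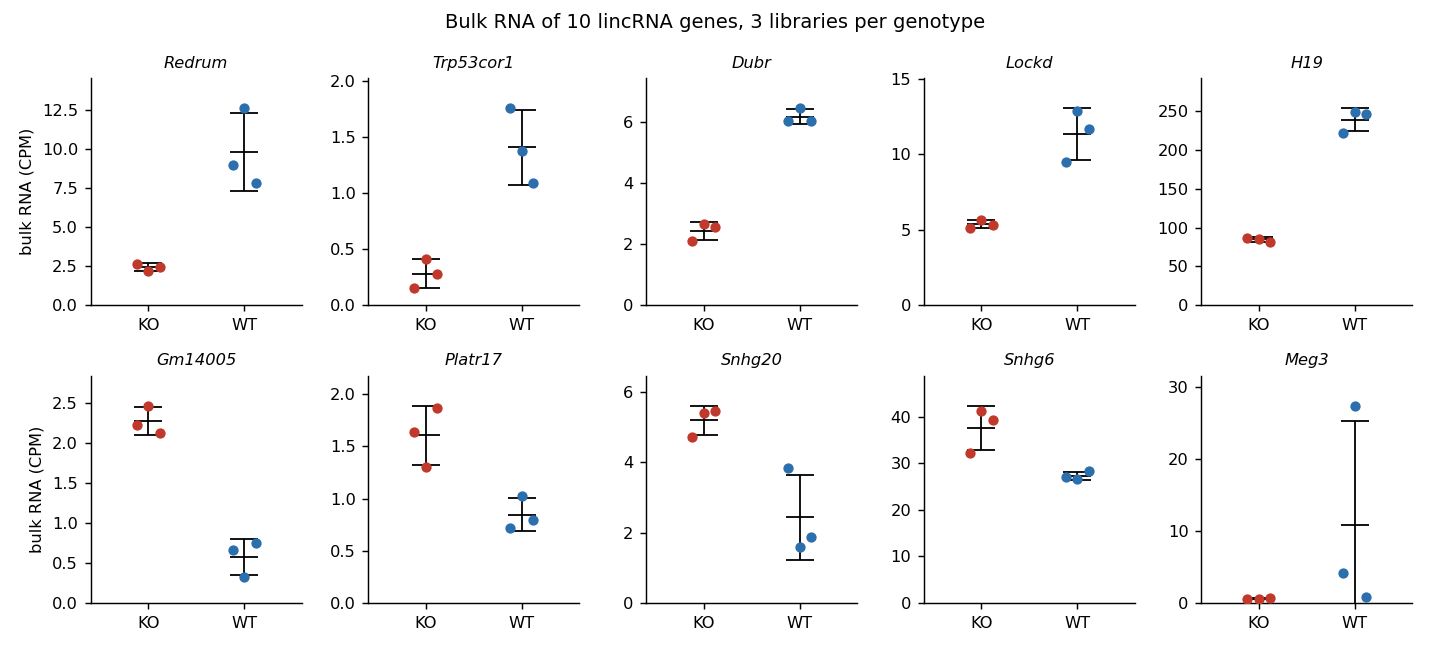
Bulk RNA level (vertical axis, CPM, each panel from 0) of 10 lincRNA genes in KO (red) and WT (blue), 1 point per library, with the mean and SD of the 3 libraries in black. Redrum, Trp53cor1, Dubr, Lockd and H19 are lower in every KO library than in every WT library, Gm14005, Platr17, Snhg20 and Snhg6 higher, and in Meg3 the 3 WT libraries spread from 0.792 to 27.4 CPM.

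Of 3 imprinted lincRNAs 1 was marked, and both of those tested for RNA fell, as did 22.6% of all genes tested. H19, maternally expressed in fetal tissues, had a window near the threshold and abundant RNA. Its H3K4me3 level was 20.6 and 15.1 CPM in KO and 20.3 and 13.9 CPM in WT, overlapping between genotypes. Its RNA had 87.0, 86.0 and 81.5 CPM in KO and 222, 249 and 247 CPM in WT (-1.50, SE 0.07, adjusted p = 8.75e-06). Meg3, also imprinted, had an unmarked window (4.99 and 5.09 CPM in KO, 2.97 and 3.25 CPM in WT, adjusted p = 0.0548, but called higher under loess and RLE with 0.0143 and 0.00666) and 23, 15 and 20 RNA counts in KO against 134, 1019 and 16 in WT. Its log2 fold change of -4.22 (SE 1.06, adjusted p = 0.0108) was -2.11 without WT 2, and without KO 1 its adjusted p was 0.0579. The groups did not overlap in CPM, but WT 3 at 0.792 CPM lay just above the highest KO library at 0.624 CPM. Hepatocyte markers, whose sums were 51.4, 12.2 and 21.1 CPM in KO and 155, 28.9 and 17.2 CPM in WT, overlapped between genotypes, and their part in these 2 genes was not tested.

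Of the 3 X-inactivation lincRNAs, Jpx and Ftx were marked and Xist was not. Xist held 10.5 and 1.31 CPM of H3K4me3 in KO and 4.97 and 2.14 CPM in WT. Its call (0.67, adjusted p = 0.0494) rested on KO 1 and turned to -1.48 without it, against 1.62 without KO 2. Its RNA had 14568, 7283 and 9600 counts in KO and 12734, 7277 and 3 in WT. KO 1 had Xist but no Y-linked RNA, WT 3 had Y-linked RNA and 3 Xist counts, and the other 4 bulk libraries held both. Jpx, an activator of Xist, fell in RNA by 0.80 (SE 0.19, adjusted p = 0.00832), with 1.97, 2.39 and 2.84 CPM in KO and 4.27, 4.47 and 3.71 CPM in WT, and the part of sex in this was not tested.

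Unmarked starts held some of the largest RNA changes. Gm5086 had 9, 5 and 4 counts in KO and 67, 88 and 47 in WT (-3.61, SE 0.30, adjusted p = 5.15e-05). Its window held 6.38 and 5.24 CPM in KO and 9.26 and 8.95 CPM in WT (-0.65, SE 0.19, adjusted p = 0.0198), so the mark was lower too, but not without KO 2, WT 1 or WT 2 (0.182, 0.0825 and 0.129). Gm29291 and Gm30948 had RNA log2 fold changes of -3.44 and -3.34, and the Gm30948 window fell too, with -1.32 (1.55 and 1.97 CPM in KO, 4.84 and 3.99 CPM in WT), a call lost by DESeq2 (adjusted p = 0.0739). Gm37068 on chromosome 1 had 41, 27 and 41 counts in KO and 0 in each WT library. Against a floor of 3 counts over the WT group this is at least 32.9-fold higher in KO (adjusted p = 0.000177). Its window had 0.817 and 1.02 CPM in KO and 2.07 and 2.59 CPM in WT, a call lost without KO 1, KO 2 or WT 2. AC132332.1, 4930519L02Rik and Gm26508 rose by 1.48, 1.14 and 1.13, and DESeq2 called neither AC132332.1 (adjusted p = 0.052) nor Gm26508 (0.0926), which also lost its call without each library but WT 2.

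Mark and RNA were called together at 9 marked starts. These are 9 of the 17 called in H3K4me3 and 9 of the 80 called in RNA, among 212 tested in both. Redrum, CT010463.1 and Gm42047 were lower in both, and Gm14005 and Platr17 higher in both. E230001N04Rik, AC122428.2, Gm10505 and 4930556M19Rik had a higher mark and less RNA. The 5 of 212 called in the same direction stand beside 2.02% of marked windows of all genes tested in both. The 4 with opposite calls stand beside 0.725% of those windows called in opposite directions. They had mark changes of 0.50 to 0.68, where the median of all marked windows was 0.31, and RNA changes of -1.21 to -2.199 on the log2 scale. Redrum kept both calls in every alternative run, and Gm14005 all but that of its mark without WT 2. Each of the other 7 lost a call when a single library was left out: Gm10505 without KO 2, E230001N04Rik without WT 2, AC122428.2 and 4930556M19Rik without KO 1, KO 2 or WT 2 in one assay or the other, 4930556M19Rik also without KO 3 or WT 3, Platr17 without KO 1, KO 2, KO 3 or WT 2, Gm42047 without KO 1, KO 2 or WT 1, and CT010463.1 without most libraries. Under loess the marks of Platr17, Gm10505 and 4930556M19Rik were not called (adjusted p = 0.181, 0.0712 and 0.145). The mark of AC122428.2 was not called with RLE scaling (0.0866) or without the filter on low counts (0.0589). Among marked windows fitted on their own, E230001N04Rik (0.0599), Platr17 (0.477), Gm10505 (0.369) and 4930556M19Rik (0.396) were not called. DESeq2 did not call the marks of Platr17 (0.0953), Gm10505 (0.0668) and 4930556M19Rik (0.116). Library size alone did not call Platr17 (0.0754) or 4930556M19Rik (0.119). Across the 212 genes the Spearman correlation of both log2 fold changes was 0.16, and 0.21 across 11257 marked coding genes; genes are not independent replicates.

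**Figure D5:**
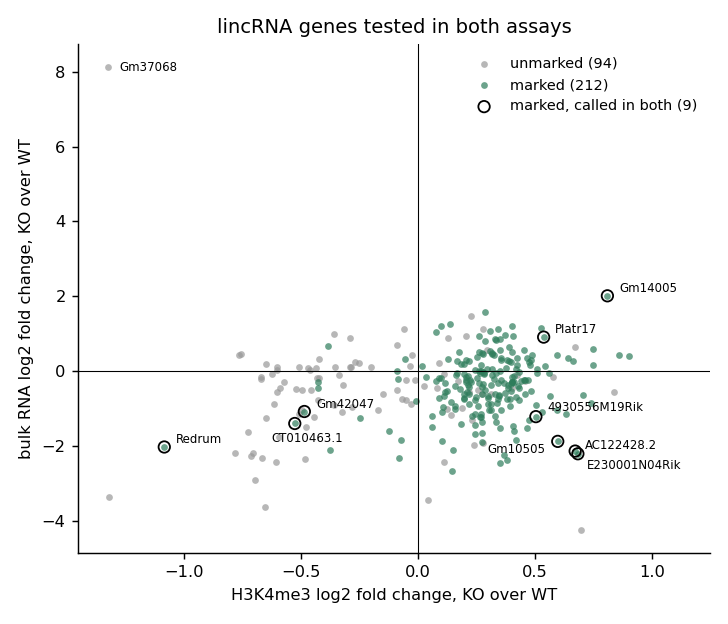
Bulk RNA log2 fold change, KO over WT (vertical axis), against H3K4me3 log2 fold change, KO over WT (horizontal axis, TMM scaling), for lincRNA genes tested in both assays, 94 unmarked in grey and 212 marked in green. Circles mark the 9 marked genes called in both assays. Most marked genes lie right of 0, around the TMM median of 0.31 over all marked windows.

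In 109 shared marked windows both the lincRNA and its closest coding gene were tested for RNA. The coding gene was higher in KO in 35 and lower in 22 of them, beside 25.9% and 20.6% of all coding genes with marked windows. Where the lincRNA had less RNA in KO (28), the coding gene was higher in 10, lower in 8 and not called in 10. 9130604C24Rik starts 155 bases from Pop7, which encodes a subunit of RNase P, on the opposite strand. Their windows averaged 64.8 and 65.0 CPM, and RNA fell by 2.45 in the lincRNA and rose by 1.36 in Pop7 (adjusted p = 4.44e-05). Gm42047 fell by 1.07 and Klhdc4, 3678 bases away, rose by 0.70. 4930556M19Rik fell by 1.21 and Rai14 rose by 0.38. 5031425E22Rik and Kmt2e had RNA log2 fold changes of -1.02 and -0.36. On the higher side AC140477.3 and Glrx5, an iron-sulfur cluster protein gene 409 bases away, rose by 1.21 and 0.54, and Platr17 and Daxx, a histone chaperone gene, by 0.91 and 0.87. Whether counting used strand is not given in the sources used here, so reads of overlapping transcripts cannot be told apart.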

How the data were processed

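The authors deposited raw counts: H3K4me3 CUT&RUN reads per transcript start window and bulk RNA-seq reads per gene, as whole-number counts without normalization, per the labels. The labels give a window of 3 kb, and the counts themselves showed a reach of 3 kb to each side. A window between 2 starts cannot hold more counts than both outer windows together while these cover it. In any library, 0 of 13526 pairs of starts 5000 to 6000 bases apart had such a larger window between them. At 6000 to 7000 bases apart 221 of 13880 pairs did. The submitters' processing notes name, with no roles, the build GRCm38.p5 and the tools Picard 2.9.0, Bowtie2 2.2.9, STAR 2.5.3a, edgeR and bedtools. The counter, strand setting and treatment of duplicates are not given in the sources used here, and reads at repeats may be misplaced. The bulk table lists 52459 genes.

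Both tables were fitted whole with edgeR 4.0.16 (R 4.3.3): filterByExpr, TMM, quasi-likelihood F test, Benjamini-Hochberg adjustment over 51038 windows or 14405 genes, adjusted p under 0.05 called. Log2 fold changes are KO over WT. CPM are TMM-scaled, and all deposited columns used matched a sample. The filter removed 268 lincRNA windows. On simulated data with 100 windows changed by a log2 of 1, 96 of 100 were recovered in the H3K4me3 design, and 99 of 100 genes in the bulk design. All changed rows averaged over 16 CPM, so recovery was not measured at lower levels, where most lincRNA windows and RNAs lie. In these runs 6 windows and 15 genes were called falsely. The simulated counts were drawn from edgeR's own model, without the difference between libraries that followed the level of a window. They therefore do not measure how many calls in the real data are false. Alternatives were other scalings (RLE, library size alone, loess), DESeq2 1.42.0, no filter, other choices of window, a replicate block and each library left out. Replicate numbers are not stated to pair samples. H3K4me3 has 2 libraries a group, which limits precision.

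Promoters are RefSeq, GRCm38.p6. Named genes are members of lists, the 8 highest windows, the 8 (marked) or 4 (unmarked) largest called changes per direction and assay, up to 15 called in both, and windows beside the threshold. Members, lists and tests were chosen with earlier results of these data known. Single-cell and J2 libraries were not used here.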

Additional observations from a re-analysis of the deposited data

How the results depend on the processing

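Marked windows numbered 707 of 5071 at 16 CPM, 1066 at 8 CPM and 452 at 32 CPM, and 738 windows were shared with a coding start, or 377 with a limit of 1000 bases. The calls below are of lincRNA windows or genes alone and compare settings, not lincRNA genes with other genes. For marked lincRNA windows, TMM gave 67 higher and 7 lower in KO. Other settings gave 37 and 1 (DESeq2), 44 and 35 (loess), 13 and 19 (marked windows fitted on their own), 130 and 21 (all distinct windows fitted), 35 lower (library size alone) and 2 lower (RLE). For unmarked windows, 98 higher and 269 lower became 27 and 3 (DESeq2), 162 higher (RLE), 21 higher (library size alone), 45 higher (all distinct windows) and 71 lower (loess). With one library left out, marked calls ranged over 19 to 147 higher and 2 to 6 lower, and unmarked calls over 46 to 70 higher and 41 to 118 lower; fewer libraries enter each of these fits. The replicate block gave 459 higher and 15 lower marked and 187 higher and 919 lower unmarked windows. The numbers are not stated to pair the libraries. Deviations of same-numbered H3K4me3 libraries correlated at 0.302 in both pairs and at -0.302 when crossed, values that mirror each other because each group has 2 libraries. In bulk RNA, where the pairs correlated at 0.23, 0.0957 and 0.0442, the block gave 19 higher and 59 lower at marked starts. In bulk RNA, 19 higher and 61 lower at marked and 5 and 29 at unmarked starts became 31 and 12 higher with loess, 3 higher at unmarked starts with DESeq2 and 44 lower at unmarked starts without the filter. With one library left out, marked starts ranged over 13 to 24 higher and 40 to 62 lower, and unmarked starts over 4 to 7 higher and 21 to 35 lower. The H3K4me3 change of Lockd, 0.10 under TMM, was -0.25 under loess (adjusted p = 0.0206), and that of Xist, 0.67, was -1.48 without KO 1 and 1.62 without KO 2; the cause was not tested.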
